A study of Homo sapiens with 36 samples.

Results

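miR-7 was followed across 36 small RNA libraries of WI-38, a normal fibroblast strain from human lung. Its members were the rows named hsa-miR-7-5p and hsa-miR-7-1-3p (here miR-7-5p and miR-7-1-3p), which are 2 of the 1508 mature miRNAs listed. Of these, miR-7-5p passed the filter on low counts, as 1 of 360 tested miRNAs, and miR-7-1-3p did not. miR-7 was chosen by the level of miR-7-5p in PMD-Sen D0 against Ctrl in these same libraries, so every value set against Ctrl or involving PMD-Sen D0 is given as a description without a test.

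The 18 conditions had 2 biological replicates each, as the labels call them. Ctrl cells were young, proliferating and untreated. Cells with plasma membrane damage-dependent senescence (PMD-Sen) had been exposed for a day to SDS, a detergent, and cells with DNA damage response-dependent senescence (DDR-Sen) for a day to doxorubicin (DXR), which damages DNA. Both were sampled at D0, the end of the exposure and before washout, and after it at D1 to D4, D6, D8 and D16. RS cells had reached replicative senescence by repeated division. All conditions used this single cell strain, and only mature miRNAs were counted, so the target mRNAs of miR-7 were not measured here.

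A miRNA guides an Argonaute protein to mRNAs that pair with its seed, near the 5′ end, and lowers their translation or stability. miR-7-5p is a strongly conserved miRNA that is abundant in neurons and neuroendocrine cells and is known to repress the receptor EGFR and the adaptors IRS1 and IRS2, which carry growth factor and insulin signals towards PI3K. It is also known for its own control: the circular RNA CDR1as carries many binding sites for it, and the long non-coding RNA CYRANO pairs with it along most of its length and triggers its decay.

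The sequences of both members, and of the other 3p arm of the family, show which reads each name stands for. They are the RefSeq mature sequences of GRCh38.p14, written 5′ to 3′, and the capitals mark the seed, bases 2 to 8.
miR-7-5p: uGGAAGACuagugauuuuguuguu
miR-7-1-3p: cAACAAAUcacagucugccaua
miR-7-2-3p: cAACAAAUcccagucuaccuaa
The seed of miR-7-5p was shared with 0 other mature miRNAs of the RefSeq table. The same 24 bases lie in the MIR7-1 hairpin at chr9:83969811-83969834 on the minus strand and in the MIR7-3 hairpin at chr19:4770700-4770723 on the plus strand, and the MIR7-2 hairpin on chromosome 15 holds them as well. A count of miR-7-5p therefore cannot be assigned to a locus. The 3p arms differ between the loci: miR-7-1-3p lies at chr9:83969771-83969792 on the minus strand, and miR-7-2-3p at chr15:88611896-88611917 on the plus strand. They shared a seed and 18 of 22 bases, and differed by A10C, G17A, A20U and U21A, counted from the 5′ end with the base of miR-7-1-3p first.

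In GRCh38 the MIR7-1 hairpin spans chr9:83969748-83969857, inside HNRNPK, a broadly expressed gene for an RNA-binding protein. It is intronic in 27 of the 28 GENCODE transcripts that span it and overlaps an exon of 1. The MIR7-2 hairpin at chr15:88611825-88611934 overlaps no annotated gene other than MIR3529 on the opposite strand. The mature miR-3529-3p is the exact reverse complement of miR-7-5p. It had no row among the listed miRNAs, so its reads could not be examined. How the counting treated strand is not given in the sources used here. The MIR7-3 hairpin at chr19:4770670-4770779 is intronic in all 56 spanning transcripts of MIR7-3HG, its long non-coding host.

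The libraries held 81668 to 1933435 counts, and the shallowest were those of PMD-Sen D0, with 81668 and 104439 against 223548 and 327354 in Ctrl. Values are counts per 1000000 (CPM) after TMM scaling, and a value of 3 counts or fewer was taken as the floor of detection. The 5 fibroblast marker miRNAs were all detected and summed to 51038 to 130127 CPM. The 6 epithelial markers summed to 14.6 to 163 CPM, 3 of the 4 blood markers had counts and summed to at most 12.6 CPM, and the hepatocyte marker miR-122-5p had 6.44 to 264 CPM. The 5 neuronal and neuroendocrine markers, from cells rich in miR-7, summed to 5.93 to 71.6 CPM, far under miR-7-5p itself. In a bulk library, fewer cells with a miRNA and less of it per cell cannot be told apart.

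miR-7-5p was detected in every library and ran from 226 CPM in a DDR-Sen D16 library to 1782 CPM in a Ctrl library, between 0.0221% and 0.190% of a library's miRNA counts. Its level was highest in Ctrl and in DXR-treated cells at the end of the exposure, and lowest in late DDR-Sen, PMD-Sen D0 and RS. The replicates of a condition differed 1.06-fold (DDR-Sen D0) to 2.46-fold (PMD-Sen D1), with a median of 1.40-fold.

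The replicates of Ctrl had 1207 and 1782 CPM, from 281 and 623 counts. Those of PMD-Sen D0 had 395 and 346 CPM, from 43 and 31 counts. Both PMD-Sen D0 libraries thus lay under both Ctrl libraries, as held for 23.6% of the tested miRNAs. With every library thinned to the smallest total, Ctrl kept 97 and 158 counts of miR-7-5p and PMD-Sen D0 kept 33 and 31. The fitted log2 difference was -2.01 (SE 0.42), a 4.03-fold lower level, and it was the 15th lowest of the 360 tested miRNAs in that comparison. These are the values by which miR-7-5p was picked, and thinning the same libraries gives no separate support. Leaving out Ctrl replicate 1 moved the difference to -2.41. Beside the lower depth of PMD-Sen D0, miR-122-5p had 129 and 167 CPM there against 14.3 to 98.8 CPM in Ctrl, epithelial markers 55.1 to 55.7 against 28.6 to 73.0 CPM, blood markers 0 to 11.1 against 0 to 4.30 CPM, neuronal markers 44.6 to 55.1 against 11.4 to 47.3 CPM and fibroblast markers 64119 to 122914 against 83018 to 87364 CPM. In the PMD-Sen D0 libraries the floor of 3 counts stood at 28.7 and 36.7 CPM of the library totals. The blood values there lay under it, and the epithelial and neuronal sums there rest on few counts. The part of depth and of these markers in the level of miR-7-5p was not tested.

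**Figure D1:**
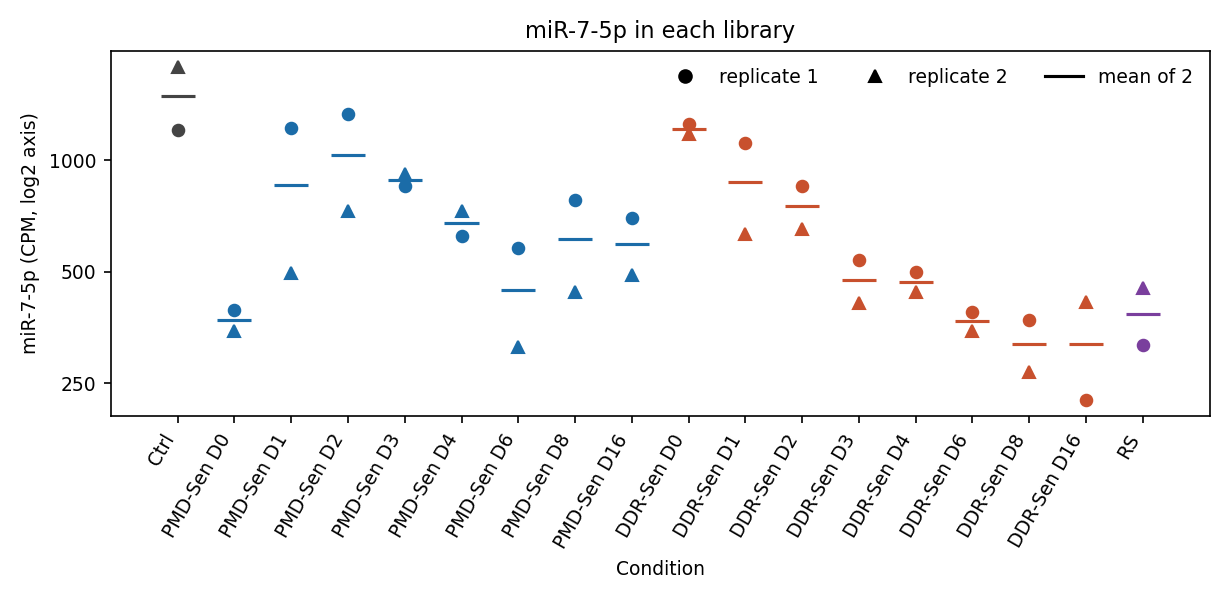
miR-7-5p in each of the 36 libraries, as CPM on a log2 axis, by condition. Circles are replicate 1, triangles replicate 2 and lines the mean of both. Ctrl and DDR-Sen D0 stand at 1176 CPM or more, the PMD-Sen series is low at D0, higher at D1 to D3 and lower again from D6, and the DDR-Sen series goes down from D0 to D8.

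After SDS was washed away, the PMD-Sen libraries were again higher. At D1 miR-7-5p had 1219 and 497 CPM, at D2 1337 and 731 CPM and at D3 850 and 917 CPM. All 6 of these libraries lay above both PMD-Sen D0 libraries, and the fitted difference of D0 against D1 to D3 was -1.32 (SE 0.37) on the log2 scale. Of all tested miRNAs, 6.67% likewise had both D0 libraries under all 6. At D4 the level was 624 and 730 CPM, at D6 578 and 312 CPM, at D8 782 and 441 CPM and at D16 700 and 489 CPM. Replicate 1 was higher than replicate 2 on 6 of the 8 PMD-Sen days and in 13 of all 18 conditions, and on D1, D2, D6 and D8 the replicates stood more than 1.7-fold apart.

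In DDR-Sen cells miR-7-5p had 1251 and 1176 CPM at D0, which overlapped the Ctrl range. It then had 1111 and 634 CPM at D1, 855 and 654 CPM at D2, 537 and 412 CPM at D3 and 498 and 442 CPM at D4. Levels at D6 were 389 and 345 CPM, at D8 370 and 269 CPM and at D16 226 and 414 CPM. The lower D8 and D16 libraries thus lay under those of PMD-Sen D0. In RS cells, which received neither agent, the level was 317 and 452 CPM and overlapped PMD-Sen D0.

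At D0, the end of each exposure, the series stood apart. Both PMD-Sen D0 libraries were under both DDR-Sen D0 libraries, by -1.71 (SE 0.41) on the log2 scale, and 22.5% of the tested miRNAs were separated in that way. Since PMD-Sen D0 was used to pick miR-7-5p, nothing is read from this.

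Ordered by the mean of both replicates, miR-7-5p was highest in Ctrl, with 1495 ± 406 CPM (SD, n = 2), and then in DDR-Sen D0, with 1214 ± 53.0. PMD-Sen D2 (1034 ± 428), PMD-Sen D3 (884 ± 47.3), DDR-Sen D1 (872 ± 338), PMD-Sen D1 (858 ± 511), DDR-Sen D2 (754 ± 142) and PMD-Sen D4 (677 ± 75.1) came next. PMD-Sen D8 (612 ± 241), PMD-Sen D16 (595 ± 150), DDR-Sen D3 (475 ± 88.2), DDR-Sen D4 (470 ± 39.8) and PMD-Sen D6 (445 ± 188) followed. The lowest were RS (385 ± 95.5), PMD-Sen D0 (370 ± 35.1), DDR-Sen D6 (367 ± 30.5), DDR-Sen D16 (319.9 ± 134) and DDR-Sen D8 (319.5 ± 71.9). In all 17 of 17 neighbouring pairs of this order the libraries overlapped, so no condition was separated from the next by its libraries. Ordering by the mean makes such overlap likely. In 14 of the 17 other conditions both libraries were under both Ctrl libraries, the exceptions being PMD-Sen D1, PMD-Sen D2 and DDR-Sen D0. This arrangement was common. It held for 23.6% of the tested miRNAs at PMD-Sen D0 and for 19.4%, 20.6%, 23.3%, 22.2%, 29.4%, 32.2% and 31.9% over PMD-Sen D1 to D16, in order of day. It held for 22.8%, 26.9%, 24.4%, 27.2%, 27.2%, 26.7%, 31.4% and 36.4% over DDR-Sen D0 to D16, in order of day, and for 27.2% in RS. The 17 comparisons share the same Ctrl libraries.

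Against Ctrl, as descriptions, the fitted log2 differences of miR-7-5p in PMD-Sen were -0.78 at D1, -0.53 at D2, -0.76 at D3, -1.15 at D4, -1.74 at D6, -1.29 at D8 and -1.32 at D16. In DDR-Sen they were -0.30 at D0, -0.77 at D1, -0.99 at D2, -1.65 at D3, -1.67 at D4, -2.03 at D6 and -2.22 at both D8 and D16. RS differed from Ctrl by -1.95 (SE 0.38). The values at PMD-Sen D1, PMD-Sen D2 and DDR-Sen D1 rested on single libraries. At PMD-Sen D1 the difference was -1.61 without its replicate 1 and -0.32 without its replicate 2, at PMD-Sen D2 it was -1.14 and -0.15, and at DDR-Sen D1 it was -1.31 and -0.37. Without Ctrl replicate 2, the higher of the controls, the difference at DDR-Sen D0 changed sign, to 0.05, and those at PMD-Sen D2 and D3 and at DDR-Sen D1 and D2 shrank to -0.24, -0.40, -0.42 and -0.64. Without Ctrl replicate 1 the values at PMD-Sen D2 and DDR-Sen D0 were -0.82 and -0.57, and without PMD-Sen D8 replicate 2 that at D8 was -0.85. From D4 on, leaving out any other library moved no difference from Ctrl by more than 1.5 times. The values ran from -2.33 to -1.36 at PMD-Sen D6 and from -2.82 to -1.85 at DDR-Sen D16.

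Whether miR-7-5p went on changing as senescence developed was tested without Ctrl and PMD-Sen D0, as late days (D6, D8, D16) against early days (D1, D2, D3). In PMD-Sen, the 6 early libraries had 497 to 1337 CPM with a median of 884, and the 6 late ones 312 to 782 CPM with a median of 534. miR-7-5p fell by 0.76 on the log2 scale (SE 0.21, 95% interval -1.19 to -0.33), a 1.69-fold lower level, with a Benjamini-Hochberg adjusted p of 0.00714 by edgeR's quasi-likelihood test. The early and late libraries overlapped. A fall was common in this comparison, since 15.8% of the tested miRNAs were called lower late than early and 13.1% higher, and miR-7-5p was the 55th lowest of 360. The call rested on single libraries: it was lost without replicate 1 of D1 (-0.48, adjusted p 0.0860) or of D2 (-0.51, adjusted p 0.107) in edgeR's test. It was lost too in edgeR's test without replicate 2 of D6 (-0.55, adjusted p 0.104), of D8 (-0.57, adjusted p 0.0792) or of D16 (-0.61, adjusted p 0.0892).

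In DDR-Sen, the early libraries had 412 to 1111 CPM with a median of 644 and the late ones 226 to 414 CPM with a median of 358. These ranges met only at their edges. miR-7-5p fell by 1.02 on the log2 scale (SE 0.22, 95% interval -1.47 to -0.57), a 2.03-fold lower level, with an adjusted p of 0.00147 in edgeR's test, and 8.33% of the tested miRNAs were called lower and 7.5% higher. It was the 20th lowest of 360. Leaving out any 1 of the 12 libraries kept the call, with differences of -1.25 to -0.88 and adjusted p values of 0.000721 to 0.0230 in edgeR's test.

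The late fall was not shown to differ between PMD-Sen and DDR-Sen. The difference of the differences was 0.26 on the log2 scale (SE 0.30, 95% interval -0.36 to 0.88, adjusted p 0.619 by edgeR's quasi-likelihood method), an interval wide enough for a fall in PMD-Sen that is 0.88 smaller than in DDR-Sen. At the same threshold 3.61% of the tested miRNAs were called.

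The same question was put as a correlation of log2 CPM with the day over D1 to D16, with 14 libraries in each series and 4 correlations adjusted together. For miR-7-5p in DDR-Sen, Spearman's rho was -0.859 (permutation p = 0.00029, adjusted 0.00116) and Pearson's r was -0.718 (permutation p = 0.00391, adjusted 0.0156). These permutations shuffled the 14 libraries freely, without regard to shared days or replicate numbers. Without both D16 libraries, the points farthest from the median day, r was -0.863. Within replicate 2 alone the order was weaker, at rho = -0.679 (adjusted exact permutation p = 0.222), while within replicate 1 every later day was lower than the one before (adjusted exact permutation p = 0.00159). In PMD-Sen, rho was -0.532 (permutation p = 0.0546, adjusted 0.109) and r was -0.378 (permutation p = 0.181, adjusted 0.241), or -0.520 without D16.

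Over D1 to D16 miR-7-5p was higher in PMD-Sen than in DDR-Sen. The 14 PMD-Sen libraries had 312 to 1337 CPM with a median of 715 and a mean of 729 ± 286 (SD), and the 14 DDR-Sen libraries 226 to 1111 CPM with a median of 428 and a mean of 511 ± 239. The difference, with each day weighted equally, was 0.57 on the log2 scale (SE 0.14, 95% interval 0.28 to 0.86), 1.48-fold, with an adjusted p of 0.00343 by edgeR's quasi-likelihood method. By that test 9.17% of the tested miRNAs were called higher in PMD-Sen and 10.8% lower. Each of the 28 fits that left out 1 library kept the call, with differences of 0.44 to 0.68.

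By day, the PMD-Sen mean was higher on 6 of 7 days. The log2 differences were -0.01 at D1, 0.46 at D2, 0.89 at D3, 0.52 at D4, 0.29 at D6, 0.94 at D8 and 0.89 at D16, each with an SE of 0.37 to 0.38. On 4 days, D3, D4, D8 and D16, both PMD-Sen libraries lay above both DDR-Sen libraries, an arrangement found for 17.8%, 17.8%, 20.6% and 25.3% of the tested miRNAs on these days, and for 26.1%, 22.2% and 20.6% at D1, D2 and D6. Taken alone, D16 gave a difference of 0.89 (SE 0.37, 95% interval 0.13 to 1.65) with an adjusted p of 0.364 in edgeR's test, where 0.556% of the tested miRNAs were called higher.

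**Figure D2:**
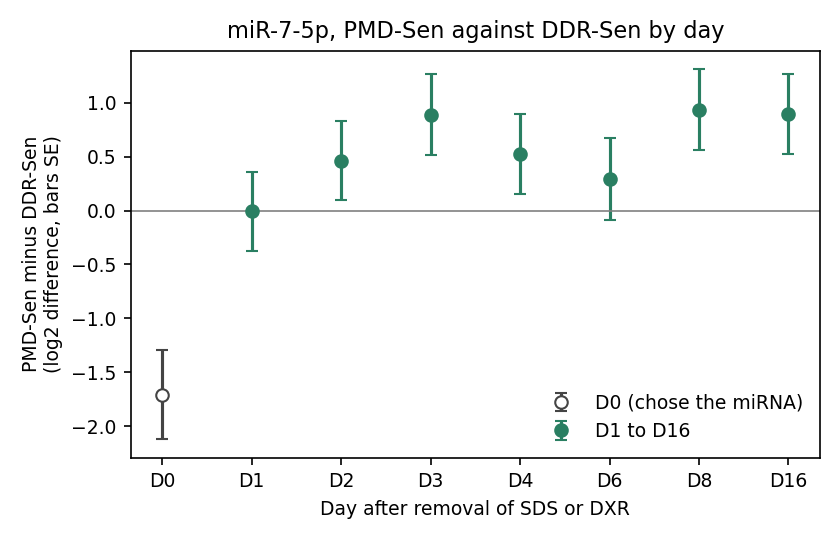
Fitted log2 difference of miR-7-5p between PMD-Sen and DDR-Sen (vertical axis) on each day (horizontal axis), with bars of 1 SE, 2 libraries per series and day. The open circle at D0, -1.71, belongs to the choice of the miRNA. From D2 to D16 the 6 differences lie between 0.29 and 0.94, and D1 is at -0.01.

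The end points of the senescence models were also compared with each other. miR-7-5p in RS, with 317 and 452 CPM, lay under PMD-Sen D16, with 700 and 489 CPM, and 23.6% of the tested miRNAs did so. The log2 difference was -0.63 (SE 0.37, 95% interval -1.38 to 0.12) with an adjusted p of 0.293 in edgeR's test, where 6.11% of the tested miRNAs were called lower. RS overlapped DDR-Sen D16, with a difference of 0.26 (SE 0.38, 95% interval -0.51 to 1.03, adjusted p 0.784 in edgeR's test, where 4.44% of the tested miRNAs were called). This last difference turned to -0.08 without DDR-Sen D16 replicate 1 and to -0.03 without RS replicate 2. Both intervals still hold a difference of 1.0 in size on the log2 scale.

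The last test asked whether DXR-treated cells already changed between the end of the exposure and the first days after it. Both DDR-Sen D0 libraries, with 1251 and 1176 CPM, lay above all 6 libraries of D1 to D3, an arrangement held by 4.72% of the tested miRNAs. The difference of D0 against D1 to D3 was 0.83 (SE 0.29, 95% interval 0.25 to 1.42), the 14th highest of 360, with an adjusted p of 0.317 by edgeR's quasi-likelihood method. In that comparison edgeR called 0 (0%) of the 360 miRNAs, where 40 had an unadjusted p under 0.05, and DESeq2 called 3.

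The other arm was scarcely sampled. miR-7-1-3p, the arm that is usually discarded when Argonaute takes up the 5p arm, had 104 counts in all 36 libraries together, against 10851 of miR-7-5p, or 104 counts of miR-7-5p for each of its own. A library held 0 to 12 counts, with 12 in PMD-Sen D4 replicate 1, 0 in 5 libraries and more than 3 in 11. Over all libraries that is 6.57 CPM of the summed library totals, without TMM scaling (exact 95% Poisson interval 5.37 to 7.97).

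Ctrl held 6 counts of miR-7-1-3p (10.9 CPM, 4.00 to 23.7) and PMD-Sen D0 held 1 (5.37 CPM, 0.136 to 29.9). These intervals cover counting error only, and they overlap. DDR-Sen D0 held 7 counts (8.73 CPM) and RS held 2 (1.88 CPM, 0.228 to 6.80). The early and late PMD-Sen libraries had 10.7 (6.63 to 16.4) and 4.63 CPM (2.79 to 7.22), from 21 and 19 counts. The early and late DDR-Sen libraries had 6.65 (4.00 to 10.4) and 5.18 CPM (2.83 to 8.70), from 19 and 14 counts. Within each series the intervals of the early and late libraries overlapped, in PMD-Sen only from 6.63 to 7.22 CPM. Such an overlap is not a test and does not show that the level stayed the same. Of the 4107331 counts of the late PMD-Sen libraries, 1933435 came from D16 replicate 1, which held 3 counts of miR-7-1-3p.

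**Figure D3:**
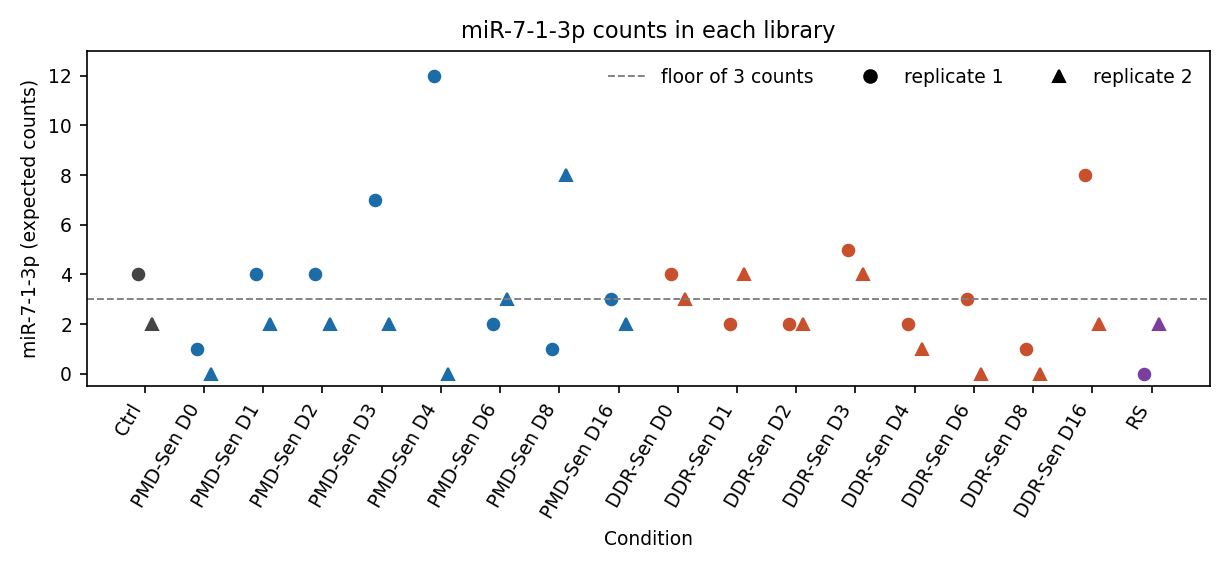
Expected counts of miR-7-1-3p in each of the 36 libraries, on a linear axis, by condition. Circles are replicate 1 and triangles replicate 2, and the dashed line is the floor of 3 counts. Most points lie at or under the line, and 11 libraries lie above it, up to 12 counts.

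miR-7-1-3p was removed by the filter on low counts, so its differences were fitted only without that filter, over 1393 miRNAs. In the 8 comparisons tested for miR-7-5p they were -2.45 to 0.53 on the log2 scale, with SEs of 0.48 to 1.46. Adjusted p values in edgeR's test were 0.940 to 1, and 0 comparisons were called. The lowest unadjusted p was 0.0629. With the day, rho of miR-7-1-3p was -0.470 in PMD-Sen (r = -0.435, adjusted permutation p 0.126 and 0.240) and -0.137 in DDR-Sen (r = 0.0346, adjusted permutation p 0.641 and 0.908).

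The balance of both arms, taken as the log2 ratio of miR-7-5p to miR-7-1-3p with 0.5 added to each count, did not pass a test of late against early days. In PMD-Sen it was 6.25 ± 0.76 early and 6.60 ± 1.66 late (SD, n = 6 each), a difference of 0.35 (exact permutation p = 0.639, adjusted 0.911). In DDR-Sen it was 6.23 ± 1.58 early and 6.33 ± 1.87 late, a difference of 0.10 (exact permutation p = 0.911, adjusted 0.911). The 924 splits allow a p as low as 0.00216, and both tests were two-sided. Of the late DDR-Sen libraries, 2 had 0 counts of miR-7-1-3p, so their ratios depend on the count added. With 0.1 added in place of 0.5 the DDR-Sen difference was 0.84, and with 1 added it was -0.18. Pooled counts gave 112 of miR-7-5p per count of miR-7-1-3p early and 63.7 late in DDR-Sen. In PMD-Sen they gave 95.1 early and 135 late. The 3p arm of MIR7-2, miR-7-2-3p, had 9 counts, in 5 libraries, and was not tested.

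The miRNAs whose pattern was most like that of miR-7-5p were taken by Pearson's r over the 18 condition means of log2 CPM, among the 359 other tested miRNAs, as a description. They were miR-27a-5p (r = 0.842), miR-18a-5p (0.838), miR-425-5p (0.817), miR-16-5p (0.794) and miR-93-5p (0.788). The next one had 0.778, so there was no gap after the fifth. miR-18a-5p and miR-93-5p come from paralogous polycistronic clusters, and miR-16-5p is known to restrain cyclins and BCL2. The points share their libraries, their scaling and the Ctrl and PMD-Sen D0 libraries that picked miR-7-5p.

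Within the group of 5 the sizes differed. The 5 were chosen over these same conditions, so a direction shared with miR-7-5p follows from the choice and is no separate finding. Late against early in DDR-Sen, where miR-7-5p differed by -1.02, miR-18a-5p differed by -1.40, miR-27a-5p by -0.88, miR-16-5p by -0.86, miR-93-5p by -0.58 and miR-425-5p by -0.29. Between PMD-Sen and DDR-Sen, where miR-7-5p differed by 0.57, miR-18a-5p differed by 1.10 and the other 4 by 0.08 to 0.25. In late DDR-Sen miR-18a-5p was near the floor, with a mean log2 CPM of 3.38 at D8 and 3.27 at D16, where 0 counts give 2.20. Its large differences thus rest on few counts there. For miR-7-1-3p the highest r values were 0.758 (miR-410-5p) and 0.623 (miR-15b-3p), and with so few counts they are no finding.

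**Figure D4:**
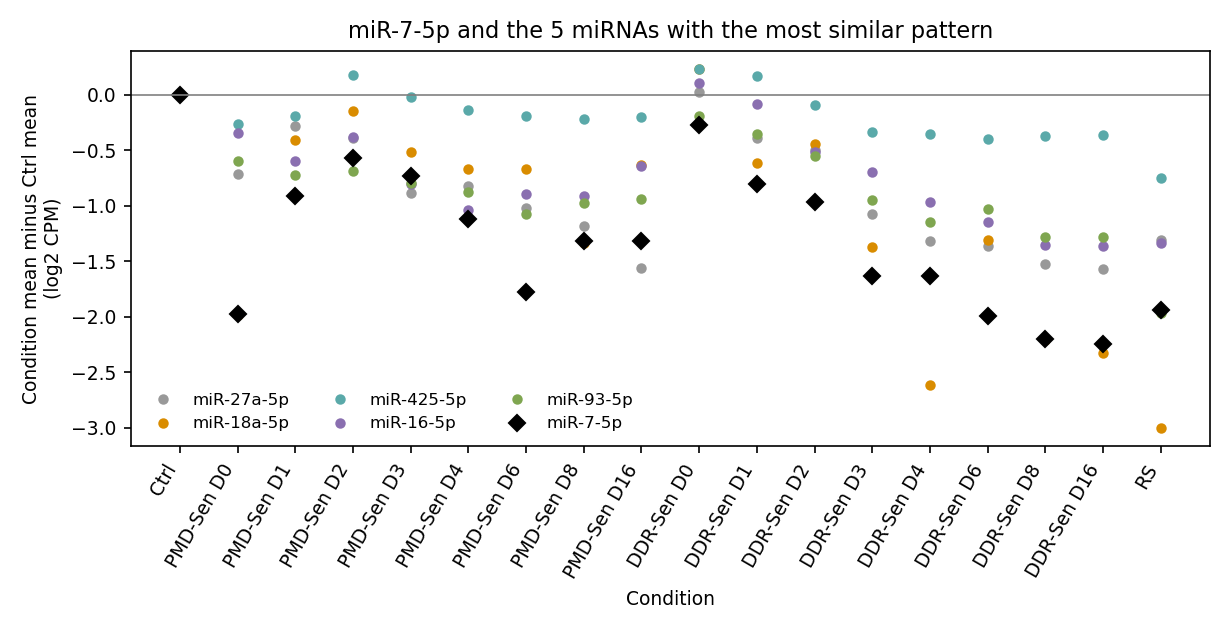
Condition mean of log2 CPM minus the Ctrl mean (vertical axis) for miR-7-5p (black diamonds) and the 5 miRNAs with the highest Pearson r to it (coloured points), in each of the 18 conditions, with 2 libraries per condition. All 6 lie under Ctrl in RS and at DDR-Sen D16, conditions that were part of the choice of the 5. There miR-18a-5p lies lowest, from few counts (log2 CPM 2.58 in RS and 3.27 at DDR-Sen D16, where 0 counts give 2.20). miR-425-5p lies closest to Ctrl there, and some points are hidden behind others.

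miRNAs tied to miR-7 by known biology were counted in the same 3 comparisons, late against early in PMD-Sen and in DDR-Sen, and PMD-Sen against DDR-Sen, where 28.9%, 15.8% and 20% of all tested miRNAs were called in either direction. The first list was the CDR1as circuit, the arms of miR-671, whose 5p arm directs cleavage of CDR1as. Of its 2 members 0 were called in PMD-Sen and 0 between the series. In DDR-Sen miR-671-3p fell by 0.61 on the log2 scale (SE 0.19, adjusted p 0.0297 in edgeR's test), a call that was lost with total counts, without the filter, after thinning and at the study's thresholds. The list's median differences were -0.26, -0.23 and 0.00, beside -0.03, 0.01 and 0.02 over all tested miRNAs.

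The second list held 9 miRNAs known, like miR-7-5p, to be destroyed when they meet a target with extended pairing, in some cases a viral transcript. In PMD-Sen, late against early, 2 rose and 2 fell, with a median of -0.14. Those that rose were miR-27b-3p (0.87, adjusted p 0.000131 in edgeR's test) and miR-30c-5p (0.79, adjusted p 0.000499). Those that fell in edgeR's test were the cluster mates miR-17-5p (-0.78, adjusted p 0.00200) and miR-20a-5p (-0.59, adjusted p 0.0246), which promote proliferation. In DDR-Sen 0 rose and 2 fell, with a median of -0.05, again miR-17-5p (-1.07, adjusted p 0.000283) and miR-20a-5p (-1.08, adjusted p 0.000405). Between the series 0 were higher and 2 lower in PMD-Sen by edgeR's test, with a median of -0.12: miR-30c-5p (-0.83, adjusted p 1.44e-06) and miR-221-3p (-0.33, adjusted p 0.000201).

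The third list held 11 miRNAs known to repress EGFR, IGF1R, IRS1 or PI3K signalling, of which 7 were tested. Of these, 0 were called late against early in PMD-Sen, where the median was 0.13. In DDR-Sen 0 rose and 1 fell, miR-145-5p, which is abundant in fibroblasts and smooth muscle and is known to repress IRS1 and IGF1R (-0.66, adjusted p 0.000896 in edgeR's test, median of the list -0.22). Between the series it was the only one called, higher in PMD-Sen by 0.25 (SE 0.089, adjusted p 0.0479 in edgeR's test, median of the list -0.15), a call that was lost without the filter and at the study's thresholds. The study names miR-374b-5p beside miR-7-5p and proposes that they may help to regulate early protein synthesis after plasma membrane damage. The comparisons of this list start at D1, so they do not cover the end of the SDS exposure. From D1 to D16 miR-374b-5p differed in direction from miR-7-5p in DDR-Sen and between the series. It rose late in DDR-Sen by 0.51 (SE 0.16, adjusted p 0.0239 in edgeR's test) and had a lower level in PMD-Sen over D1 to D16 (-0.41, adjusted p 0.00346). Late against early in PMD-Sen it differed by -0.11 (adjusted p 0.625 in edgeR's test), and whether this differed from miR-7-5p was not tested.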

How the data were processed

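Small RNA libraries of WI-38 cells were prepared from total RNA and sequenced by the authors, whose exceRpt pipeline handled trimming, mapping to GRCh38 and counting against miRBase. The authors deposited expected counts per mature miRNA and library, not normalized. Reads that fit several miRNAs are split, so 1003 of 54288 values were not whole, and values were rounded. 0 columns lacked a sample.

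Counts were tested with edgeR 4.0.16 in R 4.3.3 (TMM scaling, filterByExpr, all 36 libraries in 18 conditions, quasi-likelihood test). p values were Benjamini-Hochberg adjusted over 360 miRNAs, with a call at an adjusted p under 0.05. The biological coefficient of variation was 20.9%. log2 CPM used a prior count of 2. Correlations with the day and the arm ratio were tested by permutation, exact or with 100000 draws. Their p values were adjusted over the 4 correlations or over both series. The procedure was tested on simulated data. Poisson intervals and the floor of 3 counts cover counting error only.

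The members and lists were chosen with earlier results of these data known. Named were the members, miR-7-2-3p, the 5 most similar miRNAs of each member, miR-374b-5p and the called members of 3 lists, at most 4 each. Alternatives were DESeq2 1.42.0 (the authors' tool) as a test or for scaling, total counts, other filters, the study's thresholds (unadjusted p under 0.05 and an absolute log2 difference above 1), thinning, only the libraries compared, the replicate number as a block, other prior counts or pseudocounts, and leaving out libraries. Sequences are from RefSeq and loci from GENCODE. mRNA data were not used here.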

Additional observations from a re-analysis of the deposited data

How the results depend on the processing

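Among the results tested or used to pick miR-7-5p, 196 alternative values kept the direction and, where tested, the side of the threshold. Of the others, 8 lost the call, 9 changed direction and 1 moved by more than the replicate spread. The 196 include results that were not called and stayed uncalled. They also include values of PMD-Sen D0 against Ctrl, which was not tested, that moved by less than the replicate spread. With the replicate number as a replicate block, miR-7-5p gave -0.76 for late against early in PMD-Sen (adjusted p 0.00451 in edgeR's test), -0.99 in DDR-Sen and 0.55 for PMD-Sen against DDR-Sen, and no call changed. Over 153 pairs of conditions, replicate differences of all tested miRNAs correlated at -0.458 to 0.366 (median 0.0415), so the numbers were not taken as pairs, although replicate 1 had more miR-7-5p in 13 of 18 conditions.

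At the study's thresholds the calls of -0.76 (late against early in PMD-Sen) and 0.57 (PMD-Sen against DDR-Sen) were lost, since neither exceeds 1. Leaving out each library gave -0.94 to -0.48 for late against early in PMD-Sen, the only test of miR-7-5p by edgeR that lost its call, in 5 of 12 fits, -1.25 to -0.88 in DDR-Sen and 0.13 to 0.57 for their difference. It gave 0.44 to 0.68 for PMD-Sen against DDR-Sen, 0.51 to 1.47 at D16, -0.93 to -0.27 for RS against PMD-Sen D16, -0.082 to 0.88 for RS against DDR-Sen D16 (-0.082 without DDR-Sen D16 replicate 1, -0.034 without RS replicate 2) and 0.73 to 1.05 for DDR-Sen D0 against D1 to D3. Against Ctrl it gave -2.41 to -1.74 for PMD-Sen D0 and -0.57 to 0.055 for DDR-Sen D0. The cause of these shifts was not tested. A fit that leaves 1 library in a condition assumes that it varies like the others.

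Spearman's correlation with the day ranged, within 1 replicate number, from -1.0 to -0.679 for miR-7-5p in DDR-Sen, -0.679 to -0.607 in PMD-Sen, and -0.667 to 0.357 and -0.750 to -0.250 for miR-7-1-3p. Thinning gave 0.0343 for miR-7-1-3p in DDR-Sen. The arm ratio turned to -0.18 in DDR-Sen with a pseudocount of 1, and to -0.47 (PMD-Sen) and -0.78 (DDR-Sen) after thinning. Within 1 replicate number the PMD-Sen value was -0.79 to 1.504 and the DDR-Sen value -1.75 to 1.96. Tests of miR-7-1-3p could be run only without the filter. PMD-Sen D0, with 43 and 31 counts of miR-7-5p, had the least depth.

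Counts of called miRNAs moved as well. DESeq2 called 25 for the difference of late against early between the series, where edgeR called 13, and 1 at D16, where edgeR called 2. Of the decay list, 5 in place of 2 were called in DDR-Sen with only the libraries compared and 5 in place of 2 between the series with total counts, and at the study's thresholds 0 in place of 4 in PMD-Sen and 0 in place of 2 between the series. Of the signalling list, 2 or 3 in place of 1 were called in DDR-Sen with a mean of at least 10 counts, after thinning or with only the libraries compared, and 1 in place of 0 in PMD-Sen with a mean of at least 10 counts. Between the series that list gave 2 with total counts and 0 without the filter, and at the study's thresholds 0 in each.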
